A study of Mus musculus with 13 samples.

Results

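Fibrillar collagens and small leucine-rich proteoglycans of the mouse aorta were followed over 48 h in constant darkness. The genes were the fibrillar collagen chains Col1a1, Col1a2, Col3a1, Col5a1 and Col5a2 and the proteoglycans Dcn (decorin), Bgn (biglycan), Lum (lumican) and Fmod (fibromodulin). All probe sets that the platform annotation assigns to these 9 genes were taken, 16 of the 12422 probe sets on the array that are not controls, and 9 of 8251 genes with a probe set of their own. Probe sets were assigned to genes by the annotation only. After a filter on low intensity, 14 of the 16 probe sets and 8 of the 9 genes remained among 7453 probe sets. The remaining 2 probe sets, both of Fmod, were not above the floor of measurement in most pools.

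The aortae came from C57BL/6 mice, labelled c57/Bl6, an inbred strain; no genotype, treatment, age or sex is given in the sources used here. The mice lived for 2 weeks under a light-dark cycle of 12 h each and then without light for 36 h before the first collection. Collections 4 h apart gave 12 time points, CT18 to CT62 (CT is circadian time in hours), and each pool held the aortae of 6 mice. Each pool was hybridised to 1 one-colour array, except CT18, which had 2 arrays. The labels do not say whether the CT18 pair came from the same pool, so it was averaged and counted as 1 pool, and p-values measure the spread of single pools around a fitted curve. In circadian time the hours from CT0 to CT12 are the subjective day and those from CT12 to CT24 the subjective night. CT18 to CT38 are called the first cycle and CT42 to CT62 the second cycle.

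Fibrillar collagens are secreted as procollagen trimers, trimmed outside the cell and assembled into the fibrils that give the aortic wall its tensile strength. Type I collagen is a trimer of Col1a1 and Col1a2 chains, type III collagen is a trimer of Col3a1 chains, and type V collagen, built with Col5a1 and Col5a2 chains, is buried within type I fibrils and limits their diameter. Decorin, biglycan, lumican and fibromodulin are small proteins with leucine-rich repeats that bind the fibril surface and regulate its spacing and growth. In the arterial wall these genes are expressed by smooth muscle cells and by fibroblasts of the adventitia.

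Intensities are on a linear scale, as the authors deposited them, with every array already scaled to about the same mean. Intensities below a floor of 36.7 were set to it before log2 was taken, and a CT18 value is the geometric mean of its 2 arrays. Markers of smooth muscle were clearly measured in every pool, and their summed intensity ran from 9493 (CT18) to 15176 (CT26) over the 5 of 8 listed genes that passed the filter. Tissue next to the aorta was also present. The sum of 10 of 10 skeletal muscle markers ran from 5403 (CT54) to 27323 (CT34), that of 7 of 10 thymocyte markers from 626 (CT42) to 4307 (CT54), that of 4 of 5 markers of cardiac atrium from 2675 (CT30) to 8999 (CT42), and that of 8 of 10 markers of fat from 37538 (CT18) to 48266 (CT58). Among 6 of 8 fibroblast markers the sum ran from 2209 (CT46) to 3350 (CT26), and among 7 of 8 endothelial markers from 1457 (CT62) to 2781 (CT26). In cartilage, which also makes fibrillar collagen, the defining gene Col2a1 did not pass the intensity filter, and 4 of 7 cartilage markers summed to 409 (CT58) to 741 (CT34). Of 4 Schwann cell markers, 2 were kept and summed to 840 (CT38) to 1053 (CT18). In pooled tissue, fewer cells of a type and less RNA per cell cannot be told apart.

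Type I collagen is considered first. Col1a1, the more abundant chain of the trimer, was measured by probe set 94305_at. Its intensity at CT18, CT22, CT26, CT30, CT34 and CT38 was 2958, 3167, 4269, 3062, 3028 and 3409. At CT42, CT46, CT50, CT54, CT58 and CT62 it was 3506, 2981, 3704, 3282, 3617 and 3349. Apart from CT26, all pools lay between 2958 and 3704, and the whole range over the 12 pools was 1.44-fold. The CT18 arrays gave 3077 and 2842.

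Col1a2, the other chain of type I collagen, was measured by probe set 101130_at. Its intensity at CT18, CT22, CT26, CT30, CT34 and CT38 was 1323, 1355, 2405, 1281, 1417 and 1573. At CT42, CT46, CT50, CT54, CT58 and CT62 it was 1532, 1147, 1656, 1400, 1745 and 1466. As with Col1a1, CT26 was the highest pool, CT46 was among the lowest, and CT50 and CT58 stood above the median. The range was 2.10-fold, from CT46 to CT26, and the CT18 arrays gave 1458 and 1201.

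**Figure D1:**
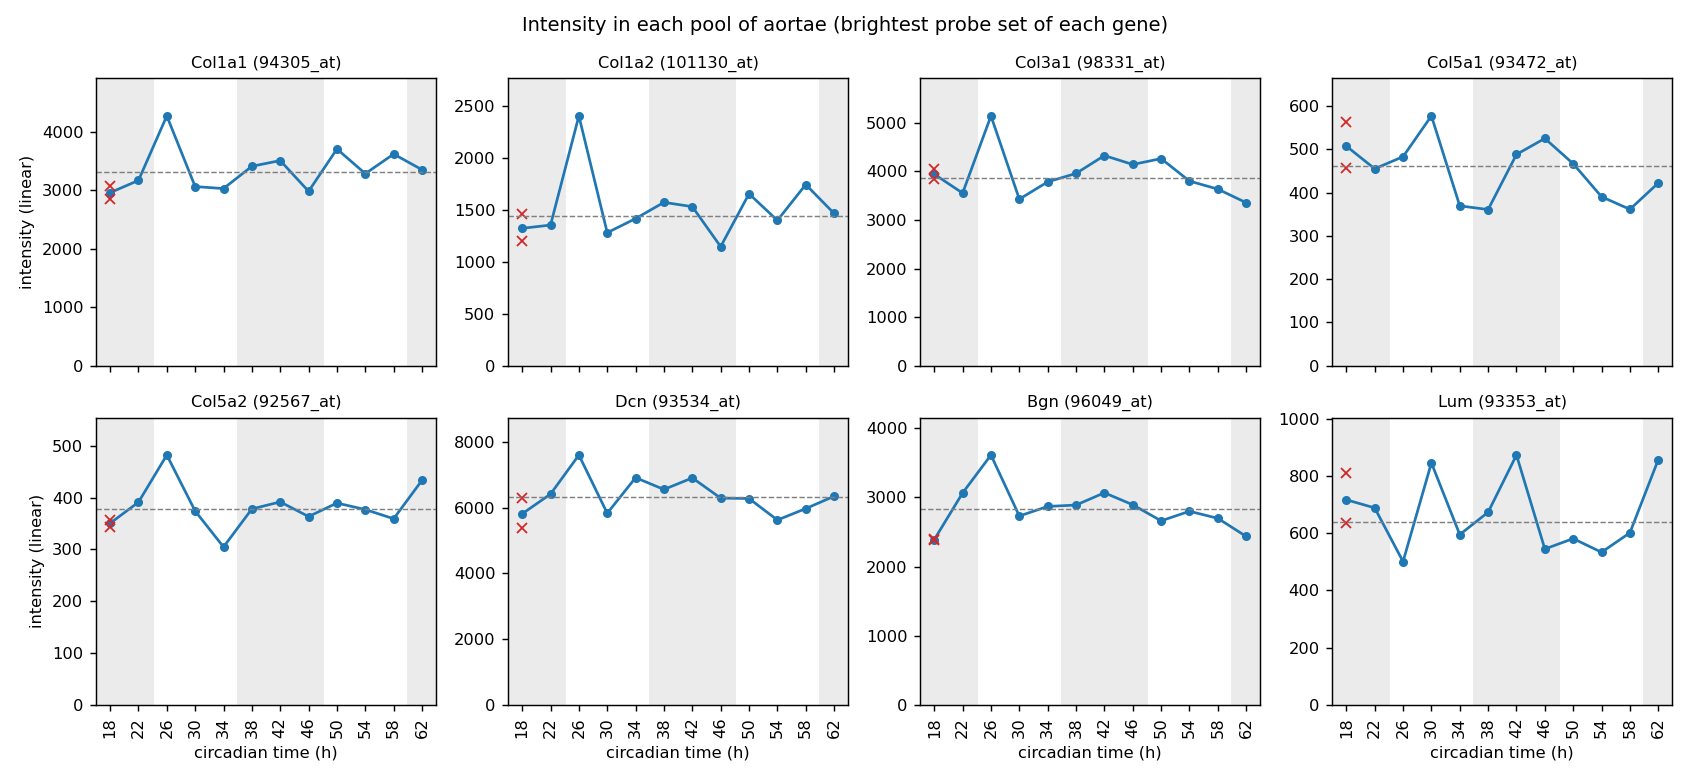
Intensity (linear scale) of the brightest probe set of each gene against circadian time (h), 1 line point for each of 12 pools of aortae, with the 2 CT18 arrays as crosses, the median as a dashed line and the subjective night in grey. Col1a1, Col1a2, Col3a1, Col5a2, Dcn and Bgn are highest at CT26, while Lum is lowest there (501) and Col5a1 is highest at CT30 (577).

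The promoters are shown for Col1a2, whose profile is compared below with that of Col1a1, and for Col3a1 and Bgn, which shared its highest pool. They are RefSeq sequences of mouse build GRCm38.p6, 5′ to 3′ on the gene's strand, from 250 bases before to 50 bases after the annotated start. The promoter table used here held 5 of the 9 genes. Capitals mark the motif CCAAT on either strand, a site of the general factor NF-Y. The positions are chr6:4505368-4505667 (plus strand) for Col1a2, chr1:45311288-45311587 (plus strand) for Col3a1 and chrX:73483351-73483650 (plus strand) for Bgn.
Col1a2: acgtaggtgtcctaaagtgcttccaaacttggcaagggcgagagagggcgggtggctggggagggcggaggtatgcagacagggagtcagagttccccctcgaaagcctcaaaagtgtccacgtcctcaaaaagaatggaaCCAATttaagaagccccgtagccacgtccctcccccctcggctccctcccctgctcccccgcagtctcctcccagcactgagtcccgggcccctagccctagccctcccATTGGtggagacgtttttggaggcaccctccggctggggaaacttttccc
Col3a1: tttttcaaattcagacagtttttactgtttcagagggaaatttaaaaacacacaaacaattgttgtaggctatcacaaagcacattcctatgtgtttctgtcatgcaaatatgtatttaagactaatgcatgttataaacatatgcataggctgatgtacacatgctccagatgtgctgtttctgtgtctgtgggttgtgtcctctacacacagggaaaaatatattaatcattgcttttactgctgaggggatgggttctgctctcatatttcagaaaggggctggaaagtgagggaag
Bgn: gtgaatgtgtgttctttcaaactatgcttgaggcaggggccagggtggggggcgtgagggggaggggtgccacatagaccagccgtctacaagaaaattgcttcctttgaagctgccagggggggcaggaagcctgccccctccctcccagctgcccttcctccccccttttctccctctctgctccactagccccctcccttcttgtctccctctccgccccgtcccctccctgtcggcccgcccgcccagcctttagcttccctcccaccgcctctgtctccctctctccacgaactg

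In this window Col1a2 held CCAAT at bases -109 to -105 on the plus strand and at bases 1 to 5 on the minus strand, counted from the annotated start. Of 32851 promoters of this length, 37.4% held CCAAT on either strand. The E-box CACGTG, a site of Clock and Bmal1, was in 7.15% of them, the element AGGTCA, bound by REV-ERB and ROR nuclear receptors, in 16.3%, and the D-box TTATGTAA in 0.938%, each searched on both strands with no overlap between motifs. These last 3 motifs were not in the windows of Col1a2, Col3a1, Col5a1, Bgn or Fmod. The windows differed widely in base composition, with 61.0% G and C in Col1a2, 37.7% in Col3a1, 63.7% in Bgn and a median of 52.7% over all promoters.

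Col3a1, the chain of type III collagen, is abundant in distensible arteries. By probe set 98331_at it measured 3943, 3554, 5142, 3429, 3784 and 3959 at CT18, CT22, CT26, CT30, CT34 and CT38. At CT42, CT46, CT50, CT54, CT58 and CT62 it measured 4326, 4143, 4263, 3801, 3636 and 3356. CT26 was again the highest pool and the other 11 pools lay between 3356 and 4326. Col5a2, a chain of type V collagen whose gene is the next coding gene to Col3a1 on chromosome 1 (RefSeq annotation of GRCm38.p6), ranged from 305 (CT34) over a median of 378 to 482 (CT26) by probe set 92567_at. Col5a1, another chain of type V collagen, ranged by probe set 93472_at from 361 (CT38) over a median of 461 to 577 (CT30). CT26 gave 483 for Col5a1, within the range of the other pools.

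Among the proteoglycans, Dcn, which coats collagen fibrils and also binds TGF-beta, was measured by probe set 93534_at. It measured 5809, 6409, 7596, 5826, 6909 and 6550 at CT18, CT22, CT26, CT30, CT34 and CT38. At CT42, CT46, CT50, CT54, CT58 and CT62 it measured 6901, 6287, 6274, 5620, 5968 and 6343. The range of Dcn over the 12 pools, 1.35-fold, was the narrowest among the brightest probe sets of the 8 genes. Its SD of 0.12 (log2, n = 12 pools) was larger than that of 5.37% of the probe sets kept. Among the 95 probe sets with a mean log2 intensity within 0.5 of its own, the SD of Dcn was larger than that of 32.6%. Its CT18 arrays, at 6285 and 5370, differed by 0.23 (log2), more than that SD.

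Bgn, a close relative of decorin that is made by smooth muscle cells, was measured by probe set 96049_at. Its intensity was 2389, 3064, 3612, 2731, 2869 and 2889 from CT18 to CT38, and 3067, 2893, 2661, 2799, 2697 and 2435 from CT42 to CT62, every 4 h in order. CT26 was the highest pool, CT18 and CT62 were the lowest, and the CT18 arrays (2396 and 2383) were nearly equal.

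Lum, a keratan sulphate proteoglycan whose gene is the next coding gene to Dcn on chromosome 10, had another profile by probe set 93353_at. It was 873 at CT42, 857 at CT62 and 846 at CT30, and its lowest values were 501 at CT26 and 533 at CT54, with a median of 637. The pool highest for most of the other genes was therefore the lowest for Lum. The CT18 arrays of Lum gave 634 and 810, a difference of 0.35 (log2) against an SD of 0.28 over the pools.

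Fmod, which regulates fibril growth in tendon and other connective tissue, was at the floor in 11 of 12 pools by probe set 99152_at and in all 12 pools by 161373_r_at. Deposited values of 99152_at were at or below 0 on 10 of 13 arrays and reached 45.6 at CT58. Those of 161373_r_at lay between 3.04 and 32.4. Neither probe set passed the filter (a mean log2 of at least 5.60), and Fmod is in no fit described here except an alternative without the filter, where neither probe set was called.

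The main question of a circadian series is whether transcripts follow a 24-h rhythm. A cosine and sine of 24 h were fitted to the 12 pools with limma for all 7453 probe sets, and the Benjamini-Hochberg adjustment ran over all of them. None of the 14 probe sets of the 8 genes passed the threshold of 0.05, where 0.349% of all probe sets did (26 of 7453). The lowest adjusted p among the 14 was 0.337, by limma. At an unadjusted p below 0.05 there was 1 of 14, against 9.96% of all probe sets, and limma without moderation of the variance also called 0 of the 14.

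The amplitude, the log2 distance from the mean to the peak of the fitted curve, was 0.06 ± 0.06 for Col1a1 (94305_at) and 0.09 ± 0.11 for Col1a2 (101130_at; SE, 12 pools). The upper 95% limits of these amplitudes were 0.20 and 0.32. Col3a1 (98331_at) had an amplitude of 0.12 ± 0.06, Dcn 0.04 ± 0.06 and Bgn (96049_at) 0.10 ± 0.06, with upper 95% limits of 0.26, 0.16 and 0.23. For type V collagen the amplitude was 0.21 ± 0.08 for Col5a1 (93472_at) and 0.08 ± 0.07 for Col5a2, and for Lum it was 0.21 ± 0.10. Their upper 95% limits were 0.38, 0.24 and 0.42. Among the dimmer probe sets the limit reached 0.51 (Col3a1, 102990_at). These intervals leave room for rhythms up to the limits given, most narrowly for Dcn. A p above the threshold does not show that a level was constant. Over the 14 probe sets the amplitude had a median of 0.14 and a range of 0.04 to 0.32, and over all 7453 probe sets its median was 0.18. Several amplitudes moved by over 1.5 times with 1 pool left out. Without CT26 the amplitude was 0.03 for Col1a1 (94305_at), 0.04 for Bgn (96049_at) and 0.08 for Col3a1 (98331_at), and without CT30 it was 0.10 for Col1a1 and 0.16 for Col1a2 (101130_at). It was 0.04 for Col5a2 and 0.07 for Dcn without CT34, and none of these passed the test. With the tissue markers named below as covariates it was 0.42 for Col1a2 (161156_r_at), 0.39 for Col5a1 (101080_at), 0.35 for Bgn (162347_f_at), 0.25 for Col1a1 (103709_at) and 0.18 for Col3a1 (102990_at).

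The probe set with an unadjusted p below 0.05 was 102990_at, a dim one for Col3a1 (adjusted p = 0.337 by limma, rank 265 of 7453 by p). It averaged 241 ± 17.2 at circadian time 2 and 247 ± 37.0 at circadian time 6, and 153 ± 17.1 at circadian time 14 (SD, n = 2 pools each, 24 h apart). All 4 pools at circadian times 2 and 6 were above the other 8. The amplitude was 0.32 ± 0.09 with a fitted peak at CT3.3. The brightest Col3a1 probe set had its fitted peak at CT23.6 with an amplitude of 0.12.

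**Figure D2:**
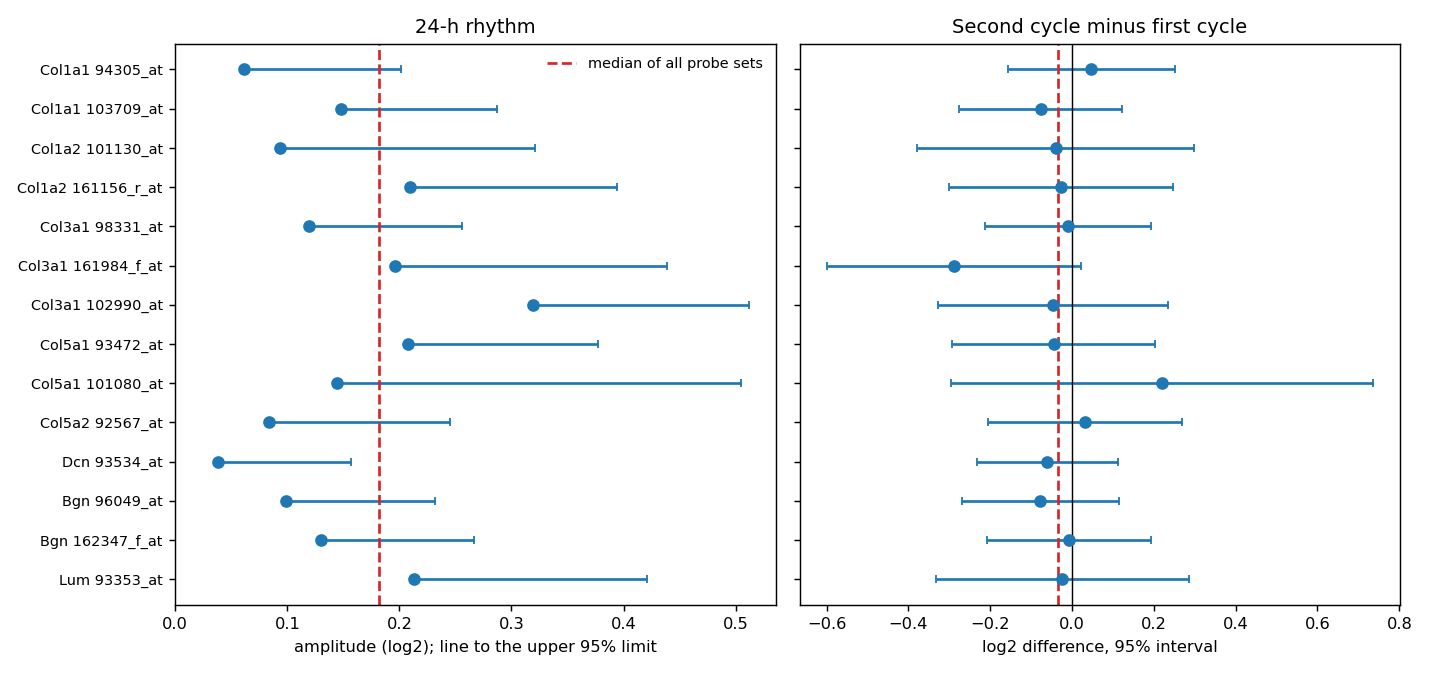
Left, amplitude of the fitted 24-h rhythm (log2) of 14 probe sets, with a line to the upper 95% limit; right, second-cycle minus first-cycle difference (log2) with its 95% interval; dashed lines are the medians of all 7453 probe sets (0.18 and -0.03). The amplitudes lie between 0.04 and 0.32, and every interval of the cycle difference includes 0.

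Next, the second cycle was tested against the first, with the 24-h curve as a covariate, for a change in level with time in darkness. By limma 0 of the 14 probe sets passed, as did 0% of all 7453, and 0 of the 14 had an unadjusted p below 0.05, against 7.54% of all. Col1a1 (94305_at) averaged 3407 ± 262 in the second cycle and 3315 ± 493 in the first cycle (SD, n = 6 pools each). Dcn averaged 6232 ± 426 in the second cycle and 6517 ± 680 in the first cycle (SD, n = 6 each), a log2 difference of -0.06 with a 95% interval from -0.23 to 0.11. Bgn (96049_at) averaged 2759 ± 216 in the second cycle and 2926 ± 405 in the first cycle (SD, n = 6 each; log2 difference -0.08, from -0.27 to 0.11). In each of these 3 genes the cycles overlapped.

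The differences of the 14 probe sets ran from -0.29 to 0.22 with a median of -0.03, the same to 2 decimals as the median of all probe sets (-0.03). Both extremes came from probe sets that are not the brightest of their gene. Col3a1 by 161984_f_at gave -0.29 ± 0.14 (SE; adjusted p = 0.679 by limma), higher in the second cycle in 1 of 6 pairs of pools 24 h apart. Col5a1 by 101080_at gave 0.22 ± 0.24 (SE; adjusted p = 0.833 by limma), and its highest pool, CT46 at 244, stood far above its other pools, which reached 159. Further fits held a component of 12 h or separate 24-h curves for each cycle. Each gave 0 of 14 probe sets by limma, as against 0% of all 7453, and 0 of 14 with an unadjusted p below 0.05, as against 5.84% and 6.98% of all. The lowest adjusted p among the 14 was 0.864 for the 12-h component and 0.71 for the separate curves.

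The clearest pattern among the brightest probe sets was not a rhythm but the match of both chains of type I collagen from pool to pool. Col1a1 (94305_at) and Col1a2 (101130_at) had a Pearson correlation of 0.948 and a Spearman correlation of 0.916 over the 12 pools. Of 28 pairs among the 8 genes this was the only one to pass a two-sided permutation test (100000 resamples; Pearson p = 4e-05, adjusted over the 28 pairs p = 0.00112; Spearman p = 0.00011, adjusted p = 0.00308). Without CT26 and CT18, the pools farthest from the Col1a1 median, r was 0.904, and after removal of the fitted 24-h curve it was 0.953. Among the 5654 other genes kept, Col1a2 was the closest to Col1a1, and Col1a1 was the closest to Col1a2. The match was seen by the brightest probe sets only. The other Col1a2 probe set had r = -0.588 with 101130_at, and the other Col1a1 probe set had 0.190 with 94305_at. With the median intensity of the array, 94305_at had r = -0.656 and 101130_at -0.648. The CT18 arrays differed by 0.28 (log2) for 101130_at, against an SD of 0.27 over the pools.

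Relative to its own mean, Col1a2 stood at 0.68 (log2) at CT26, 0.22 at CT58, 0.14 at CT50 and -0.39 at CT46. Col1a1 stood at 0.35, 0.11, 0.15 and -0.17 in these pools. Both genes lay on the same side of their means in 11 of the 12 pools, all but CT62, and the spread was wider for Col1a2 (SD 0.27, log2) than for Col1a1 (SD 0.16).

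**Figure D3:**
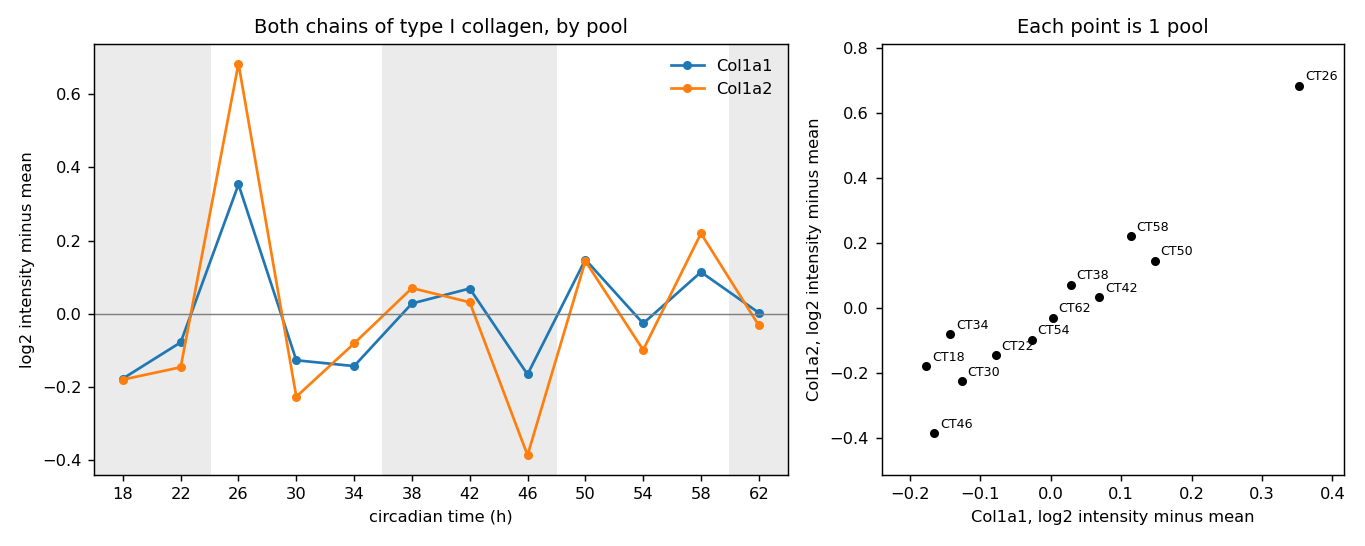
Left, log2 intensity minus its mean over 12 pools for Col1a1 (94305_at) and Col1a2 (101130_at) against circadian time (h), with the subjective night in grey; right, the same values against each other, 1 point for each pool. The points rise together from CT46 (-0.17 and -0.39) to CT26 (0.35 and 0.68).

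The other collagens and proteoglycans matched each other less closely. Of the 28 pairs, 20 had a positive r, with a median of 0.39 over all 28, and without CT26 the median was 0.11. Dcn and Bgn had r = 0.733 (Spearman 0.685; permutation p = 0.00695, adjusted p = 0.0973), and r = 0.507 without CT26. Col1a1 and Col5a2 had r = 0.715 (Spearman 0.643; adjusted permutation p = 0.110), and r = 0.458 without CT26. Col5a1, the other type V chain measured here, had r = -0.158 with Col1a1, -0.244 with Col1a2 and 0.259 with Col5a2. Without CT26 these values were -0.396, -0.617 and 0.206. For Col3a1 and Col1a1 r was 0.626, and 0.225 without CT26. For the neighbouring genes Col3a1 and Col5a2 it was 0.399, and -0.164 without CT26. Lum went apart, with r from -0.513 (with Col3a1) to 0.271 (with Col5a1), and -0.151 with its neighbour Dcn. The pairs of Lum had higher values without CT26, from -0.313 with Col3a1 to 0.457 with Col5a2, with 0.202 for Dcn. All points of a correlation share arrays and carried-over tissue, so these values describe the 12 pools.

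CT26 was the highest pool for 6 of the 8 genes by their brightest probe set, namely Col1a1, Col1a2, Col3a1, Col5a2, Dcn and Bgn, while 8.89% of all 5655 genes kept had their highest value there. The excess over the gene's mean at CT26 ran from 0.26 (Dcn, log2) to 0.68 (Col1a2) among these 6. At CT50, the pool 24 h later, Col1a1 stood at 0.15, Col1a2 at 0.14, Col3a1 at 0.12, Col5a2 at 0.03, Dcn at -0.02 and Bgn at -0.09. The high values of CT26 did not recur at the same size a cycle later in any of the 6. Among all 14 probe sets kept, 7 were highest at CT26, of the dimmer ones only Col1a1 103709_at. Col1a2 161156_r_at and Col5a1 101080_at lay below their means there (-0.24 and -0.27, log2), and the other dimmer probe sets lay above. All 8 brightest probe sets were above their means at CT42, against 7 at CT26.

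Tissue markers also stood apart in CT26. The summed smooth muscle, fibroblast and endothelial markers were highest in this pool. Of the 7 thymocyte markers kept, Rag1, Cd8a, Cd8b1 and Cd3g were at the floor there. The others, Dntt, Ptcra and Cd4, had their lowest values at CT42, CT58 and CT62. The mean of the 7 thymocyte markers (log2) was 6.17 at CT26 and ran from 5.89 (CT42) to 8.82 (CT54) over the pools, and that of skeletal muscle was 8.46 at CT26 and ran from 8.19 (CT54) to 10.55 (CT34). The correlations that follow are by the brightest probe set of each gene unless another is named. Over the 12 pools the mean of the 5 smooth muscle markers correlated with Bgn (r = 0.902), Dcn (0.806), Col3a1 (0.780), Col1a2 (0.736) and Col1a1 (0.722). It correlated less with Col5a2 (0.474), and not positively with Col5a1 (-0.02) or Lum (-0.576). The Spearman correlations were lower, 0.790 for Bgn, 0.629 for Dcn, 0.371 for Col1a1 and 0.273 for Col1a2. Without CT26 the Pearson correlations were 0.799 for Bgn, 0.623 for Dcn, 0.469 for Col3a1, 0.246 for Col1a2, 0.340 for Col1a1 and -0.174 for Col5a2. By the dimmer probe sets, over all 12 pools, smooth muscle markers had r = 0.382 with Bgn (162347_f_at) and 0.356 with Col1a1 (103709_at). With Col1a2 (161156_r_at) r was -0.136, and with Col5a1 (101080_at) -0.171. With Col3a1 it was 0.203 (102990_at) and -0.036 (161984_f_at). The mean of 7 thymocyte markers had negative correlations with Dcn (r = -0.769), Col3a1 (-0.645) and Bgn (-0.626). Other markers moved with these genes too. Endothelial markers had r = 0.813 with Bgn (Spearman 0.797), 0.638 with Col5a2 and 0.630 with Col3a1, and without CT26 0.656, 0.357 and 0.297. Fibroblast markers had r = 0.641 with Bgn and 0.570 with Dcn, and without CT26 0.484 and 0.384. With Lum they had r = 0.315, and 0.670 without CT26. Col5a1 went with the 2 Schwann cell markers (r = 0.796, and 0.811 without CT26). As a sign of RNA quality, the ratio of the 3′ to the 5′ actin control probes was highest at CT26, at 2.21 against 1.64 to 2.01 in the other pools. This ratio had r = 0.873 with Col5a2, 0.620 with Col1a1, 0.569 with Col1a2 and 0.558 with Bgn. The same ratio for the Gapdh control probes was 1.16 at CT26 and ran from 1.05 (CT46) to 1.31 (CT34). The Gapdh ratio had r = -0.383 with Col5a2, 0.195 with Col1a1, 0.276 with Col1a2 and -0.002 with Bgn. The parts of tissue composition and of RNA quality in the CT26 values were not tested. In a fit that held the marker means of thymocytes, skeletal muscle and atrium as covariates, 0 of the 14 probe sets passed for a 24-h rhythm.

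**Figure D4:**
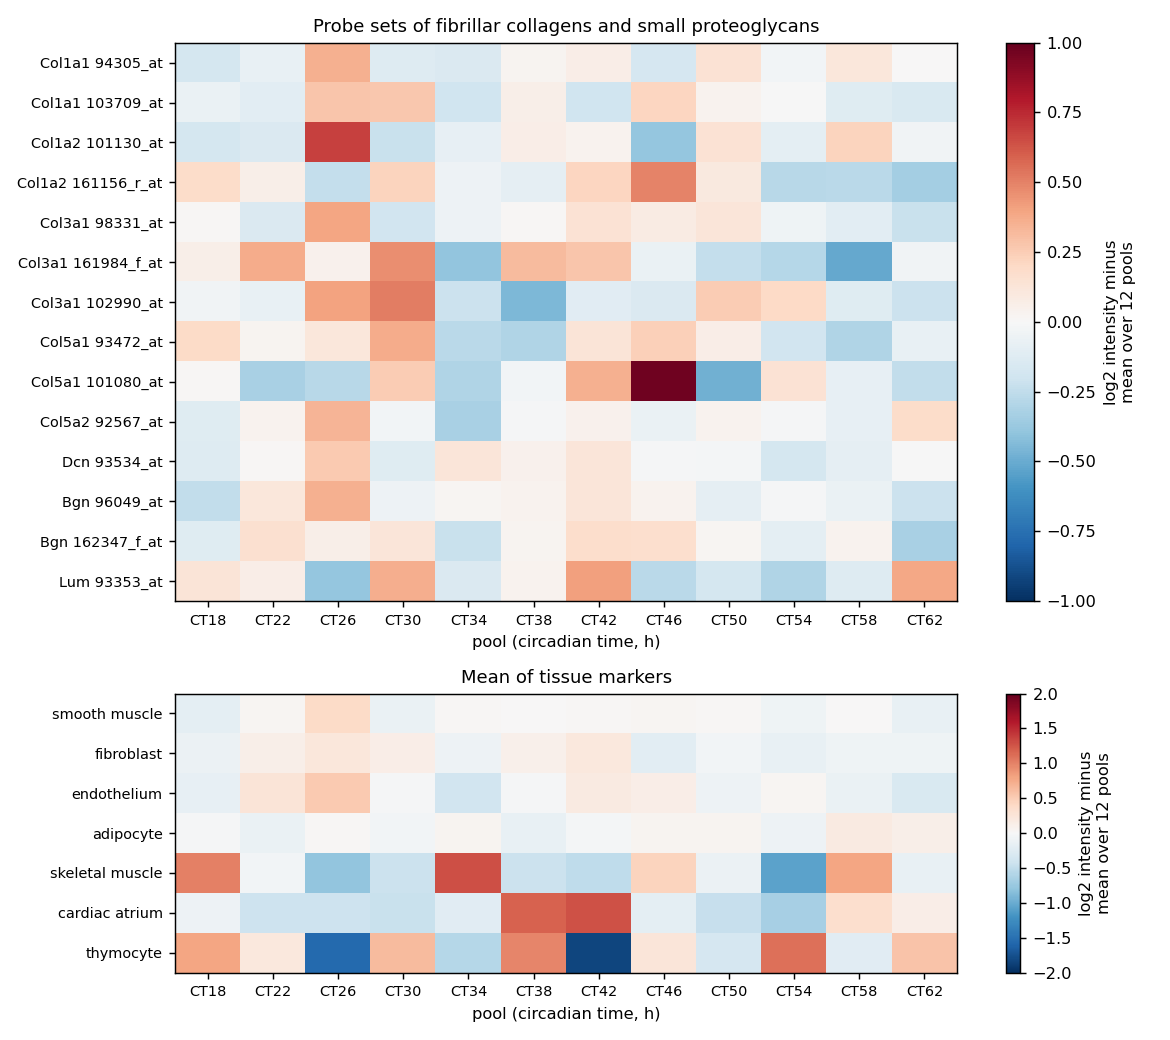
Top, log2 intensity minus the mean over 12 pools for 14 probe sets (rows) in each pool (columns); bottom, the same for the means of 7 lists of tissue markers, on a wider colour scale. At CT26, 7 of the 8 brightest probe sets are above their means (red), Col5a1 the least (0.12). Below them, smooth muscle, fibroblast and endothelial markers are red and thymocyte markers blue (8.70 at CT38 and 6.17 at CT26 as mean log2).

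The genes with the profiles closest to each type of molecule were listed by their correlation over the 12 pools, among 5654 others. For Col1a1, Col1a2 was followed by Dpm3, a subunit of dolichol-phosphate mannose synthase (r = 0.881), and Mknk1, a kinase (0.872). For Bgn the closest were Csrp1, a LIM-domain protein of smooth muscle (r = 0.905), Tagln, the smooth muscle protein SM22 (0.891), and Fermt2, an integrin activator (0.876). Without CT26 Csrp1 had r = 0.854, Tagln 0.791 and Fermt2 0.749. Other smooth muscle markers ranged with Bgn from 0.384 (Myh11) to 0.840 (Cnn1, calponin), and without CT26 from 0.03 to 0.748. For Dcn the closest were Rabac1, a Rab-binding protein (0.913), Acsm3 (0.861) and Dstn, an actin-severing protein (0.857). For Col3a1 they were Mup3 (0.882), Dtymk, thymidylate kinase (0.823), and Rps6kc1 (0.790), and the closest of its own group, Bgn, ranked 49th. Such lists from 12 pools hold chance matches, and no test is attached to them.

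Probe sets of the same gene often disagreed. For Col1a2, 161156_r_at was highest at CT46 (1471) and lowest at CT62 (825), and its correlation with 101130_at over the 12 pools was -0.588. The pool lowest by 101130_at was therefore the highest by the other probe set. For Col1a1, 103709_at ranged from 628 (CT34) to 876 (CT26) and had r = 0.190 with 94305_at. The 3 probe sets of Col3a1 had pairwise r of -0.03, 0.102 and 0.245, and those of Col5a1 0.411. For Bgn, 162347_f_at ranged from 559 (CT62) to 790 (CT42) and had r = 0.541 with 96049_at. In the names of the probe sets, _f_ marks probes shared within a family of sequences and _r_ marks relaxed design rules.

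The profiles of some probe sets went with a property of the arrays. Over the 12 pools, the median intensity of the array had r = 0.805 with 161156_r_at (Col1a2) and 0.660 with 93472_at (Col5a1), but -0.648 with 101130_at (Col1a2) and -0.656 with 94305_at (Col1a1). For 103709_at (Col1a1) r was 0.450. For Col3a1 it was -0.144 (98331_at), 0.544 (161984_f_at) and 0.166 (102990_at). On the CT18 arrays, with medians of 82.5 and 87.2, 161156_r_at measured 1086 and 1298, and 101130_at measured 1458 and 1201, in the same order. There 103709_at measured 690 and 692. The part of this property in the profiles was not tested.

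**Figure D5:**
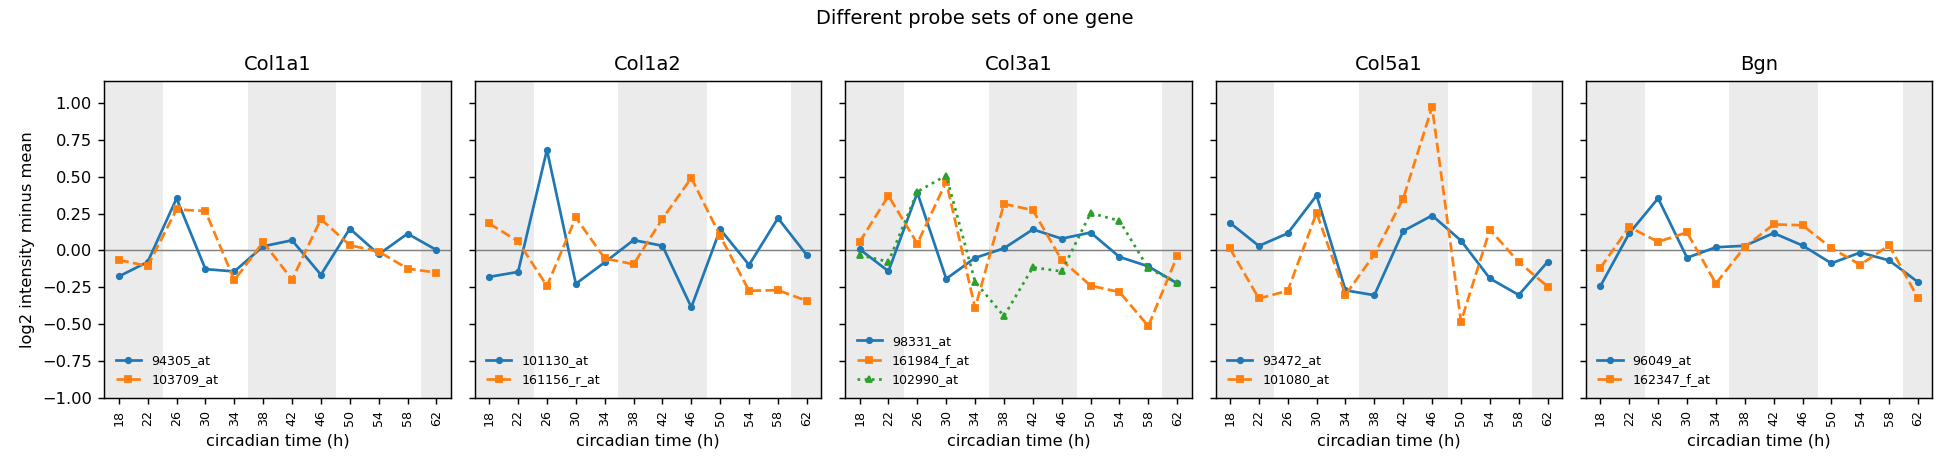
Log2 intensity minus its mean over 12 pools against circadian time (h) for the probe sets of 5 genes, 1 line for each probe set, with the subjective night in grey. The lines of Col1a2 run in opposite directions at CT26 (0.68 and -0.24) and CT46 (-0.39 and 0.49), while those of Bgn run closer together.

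The genes around fibril formation were read from lists. Of 29 genes for the folding, processing and cross-linking of procollagen, 16 passed the intensity filter, and 1 of these had a 24-h rhythm past the threshold (0.349% of all probe sets did), Serpinh1 (HSP47), the collagen chaperone of the endoplasmic reticulum. It ranged from 1308 (CT34) to 2780 (CT42), and its amplitude was 0.46 ± 0.07 (SE) and its fitted peak lay at CT20.4 (adjusted p = 0.0407 by limma). The chains it folds did not pass in the same fit, but a difference between its amplitude and theirs was not tested. Whether Serpinh1 passed in the alternative fits given at the end was not looked up. The number of probe sets with a rhythm ran from 4 to 39 in those fits, against 26 here. The median amplitude over the 16 was 0.20, against 0.18 over all probe sets. Loxl1 and Lox, which cross-link elastin and collagen, had amplitudes of 0.37 ± 0.09 and 0.53 ± 0.17 without passing (adjusted p = 0.214 and 0.427 by limma), and Sparc, a collagen-binding glycoprotein, had 0.08 ± 0.07.

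At that background of 0.349%, a count of 0 among the few genes of a list is not a result about the list. Of 16 other fibrillar and fibril-associated collagens, 10 were kept and 0 passed. The smallest p was that of Col11a2, a cartilage chain close to the floor (amplitude 0.93 ± 0.27, adjusted p = 0.349 by limma). Col6a1, Col6a2 and Col6a3, the chains of the beaded filaments of type VI collagen, had amplitudes of 0.03, 0.12 and 0.01. Each of these chains had its highest pool at CT26, and the rest of the 10 collagens kept were highest in other pools. Of 11 other small leucine-rich proteoglycans only Ogn (mimecan) and Chad (chondroadherin) were kept, and 0 passed (smallest p Chad, amplitude 0.24 ± 0.12). Of 14 genes of chondroitin and dermatan sulphate synthesis 3 were kept and 0 passed (smallest p Chpf, amplitude 0.48 ± 0.38).

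Of 24 genes of TGF-beta signalling, a main inducer of collagen transcription, 15 were kept and 0 passed. The smallest p belonged to Ccn2, a matricellular target of TGF-beta (amplitude 0.70 ± 0.13, peak at CT17.5, adjusted p = 0.0941 by limma), which ranged from 385 (CT30) to 1485 (CT62). Of 18 collagen receptors and fibril-binding proteins 10 were kept and 0 passed (smallest p Mrc2, an endocytic collagen receptor, amplitude 0.32 ± 0.12). For the second cycle against the first, 0 genes of these 6 lists passed in either direction by limma. The median difference was -0.28 (log2) for the other collagens, -0.13 for both the TGF-beta list and the receptors and 0.01 for procollagen processing. It was 0.05 for the other proteoglycans and 0.04 for chondroitin and dermatan sulphate synthesis, against -0.03 over all probe sets. Among the other collagens, the Col9 and Col11 chains ran from -0.94 (Col9a3) to -0.40 (Col9a2). Col6a1, Col6a2, Col6a3, Col12a1 and Col14a1 ran from -0.17 (Col14a1) to 0.05 (Col12a1).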

How the data were processed

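Aortic RNA of 12 pools was measured on 13 one-colour arrays of short oligonucleotides. The authors deposited linear intensities, 1 per probe set per array. For the software and scaling, nothing was given in the sources used here. All arrays had the same mean of 200.2 once the highest and lowest 2% of values were set aside, so the deposited intensities were taken as scaled. Between 21.3% and 24.2% of the values of an array were at or below 0.

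Of 12488 probe sets, 66 controls were left out. GEO's platform annotation gave 1 gene for 10833 probe sets, several for 396, and did not list 1193. By gene identifier 10817 were found in RefSeq (GRCm38.p6), with 0 symbols changed. The build behind the array design is not given, so positions are printed for the RefSeq promoters only. Intensities were floored at the 20th percentile of positive values (36.7) and log2 was taken. The CT18 arrays were averaged, and probe sets with a mean at or above the 40th percentile (log2 of 5.60) were kept. Linear models used limma 3.58.1 and R 4.3.3 (lmFit, eBayes with an intensity trend), with 9 residual degrees of freedom for the rhythm, 8 for the cycle difference, 6 for the 12-h component and 6 for the difference in rhythm. The adjustment by Benjamini-Hochberg ran over all probe sets kept (threshold 0.05). Limits of 95% use the moderated degrees of freedom. Precision is limited by how few arrays there are.

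The genes and lists were chosen with earlier results of these data known. Every probe set of the 9 genes is named, and a gene with several is represented by the brightest. For Col1a1, Col3a1, Dcn and Bgn the 3 genes with the highest correlation are named, and for each list the members past the threshold or the 1 with the smallest p; other genes in the text were chosen after their values were seen. Alternatives were the floor, the filter, the normalization, the variance model, marker covariates, and leaving out each pool or CT18 array.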

Additional observations from a re-analysis of the deposited data

Results flagged for a closer look

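Values that stood apart were looked for among the 6 pools of each cycle by Dixon's ratio at its 95% critical value, for 14 probe sets in 2 cycles. Of 28 such groups 2 stood out, where chance gives about 1 in 20. Both were high values of the pool CT26. Col1a2 (101130_at) measured 2405 there, and the nearest other pool of the first cycle measured 1573 (ratio 0.674). Col3a1 (98331_at) measured 5142, and the nearest other pool measured 3959 (ratio 0.645). The same pool had the highest summed smooth muscle markers (15176, median of the pools 11197) and low thymocyte markers; the part of these in the values was not tested.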

How the results depend on the processing

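In 23 alternative fits, 0 probe sets of these genes passed in any of the 4 tests. Their lowest adjusted p by limma was 0.137 for the 24-h rhythm (Lum without CT30), 0.480 for the cycle difference, 0.676 for the 12-h component and 0.515 for the difference in rhythm. Over all probe sets the number with a rhythm was 26 and ran from 4 (without the intensity trend, without moderation, or with no filter) to 39 (without CT30); it was 5 with arrays centred on medians, 7 with tissue markers as covariates, and 8 to 39 when a pool or a CT18 array was left out. The 12-h count over all probe sets was 0 and reached 4 without CT18. The cycle count was 0 and reached 2 without CT42. Of 322 alternative values of the uncalled cycle differences, 39 had the other sign, and 2 of 14 probe sets kept their sign throughout. The correlation of Col1a1 and Col1a2 ran from 0.859 (quantile normalization) to 0.966 in 19 alternatives, chosen after seeing the data, and passed in 19 (adjusted permutation p from 0.00028 to 0.0202). Replicate numbers pair no pools. With pools 24 h apart paired instead (circadian time as a block, 5 residual degrees of freedom, chosen after seeing the data), 0 of 14 and 0 of 7453 probe sets passed for the cycle difference by limma. At an unadjusted p below 0.05 there was 1 of the 14, Col3a1 161984_f_at (adjusted p = 0.586), against 8.06% of all. Signals close to background, such as those of Fmod, allow no statement about change.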
